A study of Mus musculus with 39 samples.

Results

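The gene set described here is the replicative helicase MCM2-7 and the sliding clamp of DNA replication, with 7 members: Mcm2, Mcm3, Mcm4, Mcm5, Mcm6, Mcm7 and Pcna. They were listed by symbol, by a rule that uses no measured value but was written with earlier results of these data known. All 7 have an entry in each of the 4 deposited expression tables, which together name 24689 genes. All 7 passed the filter on low values in every table.

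The libraries are bulk RNA-seq of cells sorted from the popliteal and inguinal lymph nodes of C57BL/6 mice aged 8-12 weeks. Nanoparticles were injected subcutaneously at the hock of the immunized animals; they carry the adjuvant CpG, an agonist of Toll-like receptor 9, with or without a protein. The protein was ovalbumin (OVA), the antigen seen by the receptors of engrafted OT-I or OT-II T cells, or bovine serum albumin (BSA), for which they are not specific. The series was set up to record how dendritic cells (DC), which carry antigen to T cells, respond soon after meeting antigen-specific T cells.

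There were 39 libraries in 4 experiments. The T cell experiment held CD4+ OT-II T cells, whose transgenic receptor recognizes OVA, taken 20 h after OVA with CpG particles or after BSA with CpG particles, with 3 libraries each. The 12 h costimulation experiment held DC with 2 libraries in each of 4 groups. In 3 of them OT cells were present: OVA particles in Cd80/86 -/- mice, OVA particles in wild-type mice and BSA particles in wild-type mice. The titles of the fourth, OVA particles in wild-type mice, name no OT cells, and it is called "without OT cells" here for that reason. The 5-replicate experiment held wild-type DC 20 h after OVA with CpG, 20 h after BSA with CpG and from non-immunized mice, with 5 libraries each. The time course held wild-type DC without immunization, and 12 h or 24 h after CpG particles or OVA with CpG particles, with 2 libraries each. For the time course and the 5-replicate experiment the labels do not say per sample whether mice carried OT cells. DC were enriched by negative selection and then sorted, so the sort sets which cells each library holds. The labels do not say whether replicates came from separate animals, so p-values measure only the spread between these samples, which may be technical.

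The MCM2-7 proteins form a ring of 6 different subunits that is loaded onto replication origins in an inactive state before DNA synthesis begins, a step called licensing, and that unwinds DNA once it is activated. PCNA is a ring that slides along DNA and holds polymerases and repair enzymes at the replication fork. Transcription of these genes is driven by E2F factors and is low in resting lymphocytes, which start to express them as they leave quiescence after antigen recognition.

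Promoter windows were printed to show the letters that E2F factors are known to bind and the range of layouts among the members. Windows from 250 bases before to 50 bases after a RefSeq start were at hand for 6 of the 7 genes (GRCm38.p6, with Mcm7 present in 2 windows), while Mcm4 is named only. The letters searched on both strands were TTTNNCGC, with each N either C or G, and they are in capitals below. The 250 bases before the start are given 5′ to 3′ on the strand of each gene, for Mcm5 (chr8:75109259-75109508, plus strand), Mcm6 (chr1:128359706-128359955, minus strand), Mcm7 (chr5:138171884-138172133, minus strand) and, as a window with no match, Pcna (chr2:132253181-132253430, minus strand).
Mcm5: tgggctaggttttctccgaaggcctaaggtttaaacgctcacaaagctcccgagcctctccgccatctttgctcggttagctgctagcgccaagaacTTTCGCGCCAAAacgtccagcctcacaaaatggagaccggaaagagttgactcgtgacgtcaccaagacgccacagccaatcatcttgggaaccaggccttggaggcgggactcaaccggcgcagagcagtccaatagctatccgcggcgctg
Mcm6: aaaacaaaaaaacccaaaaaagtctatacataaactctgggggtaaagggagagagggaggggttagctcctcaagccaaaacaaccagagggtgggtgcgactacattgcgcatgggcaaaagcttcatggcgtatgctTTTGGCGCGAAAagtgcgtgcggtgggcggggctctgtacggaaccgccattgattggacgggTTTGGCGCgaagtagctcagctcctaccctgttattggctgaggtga
Mcm7: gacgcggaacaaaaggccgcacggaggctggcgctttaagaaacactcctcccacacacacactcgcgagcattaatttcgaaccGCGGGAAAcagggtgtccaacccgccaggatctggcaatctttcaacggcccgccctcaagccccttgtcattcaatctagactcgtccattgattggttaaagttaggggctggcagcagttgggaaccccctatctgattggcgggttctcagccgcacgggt
Pcna: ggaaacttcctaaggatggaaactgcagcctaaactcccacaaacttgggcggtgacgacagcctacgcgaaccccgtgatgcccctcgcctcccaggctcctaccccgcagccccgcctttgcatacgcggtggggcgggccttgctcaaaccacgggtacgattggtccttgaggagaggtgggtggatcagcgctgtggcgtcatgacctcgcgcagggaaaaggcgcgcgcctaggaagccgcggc

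In Mcm5 a pair of overlapping matches, on opposite strands, started 153 and 149 bases before the start. Mcm6 held such a pair at 110 and 106 bases and a further match at 47 bases. Mcm7 held a match at 165 bases before its start and another after it, and both matches of Mcm3 lay after its start. The letters were thus present in 4 of the 6 member genes and in 4 of their 7 windows, against 2.26% of all 32851 windows. The letters CCAAT, bound by the factor NF-Y, were found in all 7 windows of the 6 genes, against 37.4% of all windows. TTTGAA or TTCGAA, the element that marks many genes of late cell cycle, was found in 2 of the 7 windows (Mcm2 and Mcm7), against 19.2% of all windows. A match describes these letters and is not a measured binding site.

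Depth was low to moderate, with 628404 to 1621784 counts per library in the costimulation experiment, 367209 to 2052904 in the 5-replicate experiment, 612017 to 1329203 in the time course and 155088 to 1316341 recovered reads in T cells. A member was covered by 6 to 189, 6 to 119, 17 to 179 and 5 to 286 reads per library in those 4 experiments, in that order. DC levels are counts scaled to a library total of 1e+06 (CPM), and T cell levels are normalized counts. Levels are compared between groups for the same gene only, since they are not scaled to transcript length. Changes are log2 fold changes ± SE, and a gene is called changed where its p, adjusted over all genes tested (Benjamini-Hochberg), is under 0.05. Fitted DC changes use TMM scaling and CPM levels do not. In 15 of 105 member changes between 2 groups, the fitted change and the difference of the mean levels had opposite signs, and 0 of these 15 had an unadjusted p under 0.05. In bulk libraries a difference in the number of cells that express a gene and a difference in RNA per cell cannot be told apart.

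OT-II T cells after OVA particles were compared with OT-II T cells after BSA particles, which puts T cells that could recognize the antigen beside T cells that could not. The licensing genes were higher throughout the OVA group: 6 of the 7 members rose, by between 1.80-fold (Pcna) and 3.37-fold (Mcm5), and Mcm4 alone missed the threshold. Of all genes tested, 10.8% rose and 15.9% were called in either direction. In all 7 members each OVA library lay above each BSA library, a separation found in 21.5% of all genes. The members had a median log2 change of 1.18, against 0.04 over all genes.

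Mcm5, a subunit at the gate through which the ring closes around DNA, stood at 95.5, 66.5 and 78.7 normalized counts in OVA T cells, against 28.2, 15.9 and 26.5 in BSA T cells. The lowest OVA library was above the highest BSA library by more than the whole spread within either group. Its log2 change was 1.75 ± 0.28 (limma, adjusted p = 0.00369, n = 3 each). Those levels rest on 91, 99 and 255 reads in the OVA libraries and 19, 6 and 26 in the BSA libraries. Mcm2, the subunit opposite Mcm5 at that gate and a binder of histones, stood at 50.4, 29.6 and 42.3 normalized counts in OVA T cells, against 11.9, 18.5 and 17.3 in BSA T cells. The groups did not overlap, and the log2 change was 1.29 ± 0.30 (limma, adjusted p = 0.0158). Mcm3, the neighbour of Mcm5 in the ring, stood at 47.2, 32.9 and 39.8 in OVA T cells, against 28.2, 13.2 and 14.3 in BSA T cells. BSA replicate 1 was close to the lowest OVA library, and the log2 change was 1.13 ± 0.32 (limma, adjusted p = 0.0349).

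Mcm4, Mcm6 and Mcm7 form the core subcomplex with helicase activity. Mcm6 stood at 64.0, 47.0 and 59.0 normalized counts in OVA T cells, against 29.7, 15.9 and 10.2 in BSA T cells. Every OVA library lay clear of the BSA libraries, with a log2 change of 1.67 ± 0.35 (limma, adjusted p = 0.0104). Mcm7 stood at 45.1, 28.2 and 54.0 in OVA T cells, against 14.8, 13.2 and 27.5 in BSA T cells. OVA replicate 2 and BSA replicate 3 were nearly level, and the log2 change was 1.18 ± 0.34 (limma, adjusted p = 0.0372). Mcm4 stood at 42.0, 27.6 and 32.1 in OVA T cells, against 11.9, 21.2 and 20.4 in BSA T cells. Its libraries did not overlap, yet its log2 change of 0.91 ± 0.31 was not called (limma, adjusted p = 0.0658). The exons of Mcm7 overlap those of Ap4m1 and Cops6 on the opposite strand and the microRNAs Mir25 and Mir93 on its own strand, so its reads are uncertain to the extent that counting did not separate strands, which is not given in the sources used here.

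Pcna stood at 126, 82.7 and 88.3 normalized counts in OVA T cells, against 51.9, 60.9 and 48.9 in BSA T cells. Groups were separate, and the log2 change of 0.85 ± 0.24 was called (limma, adjusted p = 0.0315). Pcna has 2 annotated pseudogenes, to which some of its reads could have been assigned. Summed over the 7 members, the level was 470, 315 and 394 normalized counts in OVA T cells, against 177, 159 and 165 in BSA T cells. The lowest OVA sum lay well above the highest BSA sum, and the BSA sums were close together.

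**Figure D1:**
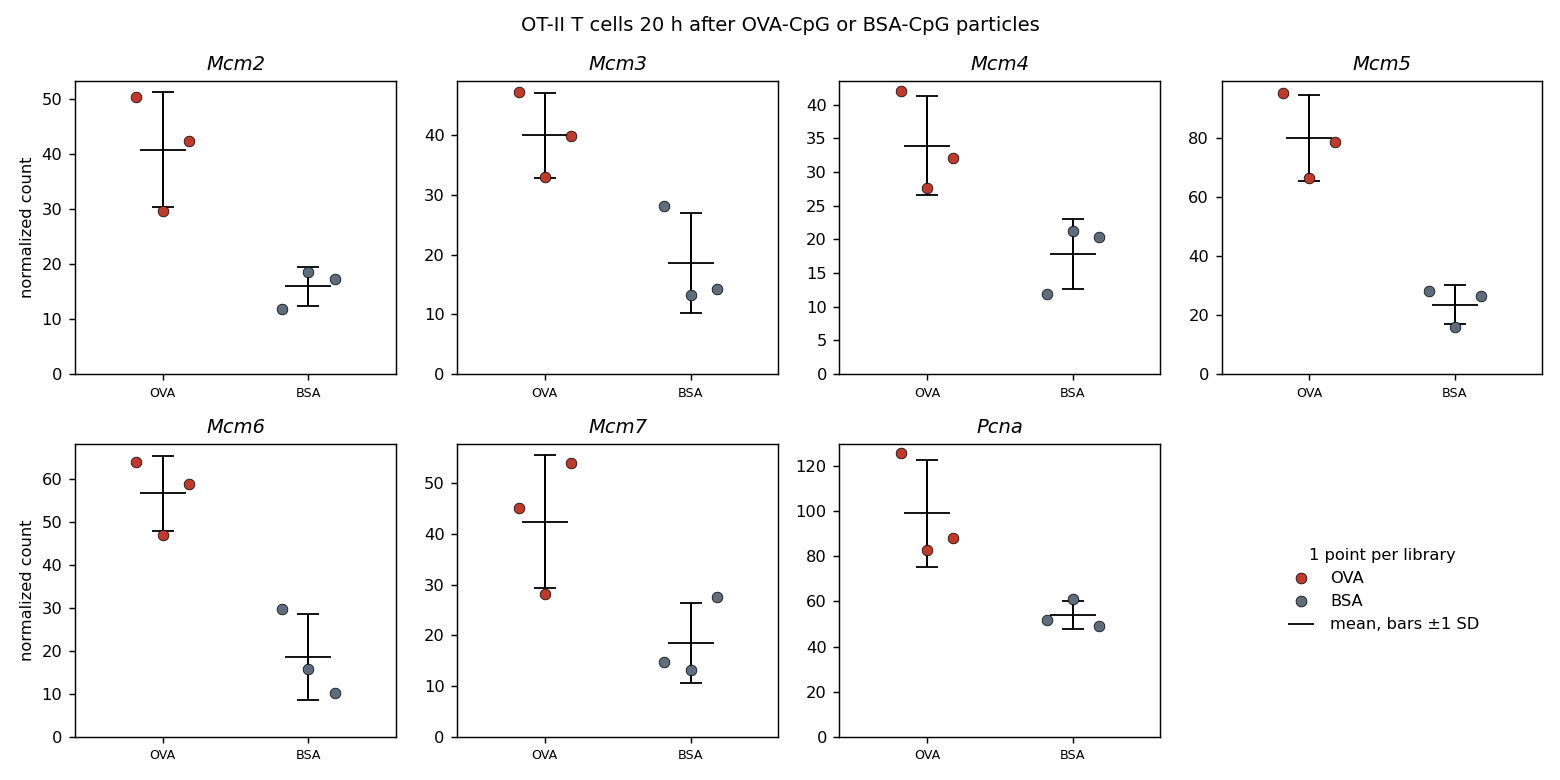
Levels of the 7 genes in OT-II T cells, in normalized counts per library, with OVA libraries (n = 3) left of BSA libraries (n = 3) and bars for the group mean ± 1 SD. Each OVA point lies above each BSA point of the same gene; the widest gap is that of Mcm5 (66.5 to 95.5 in OVA libraries, 15.9 to 28.2 in BSA libraries).

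The rise of Mcm5 and Mcm6 was called under all 12 alternative settings, and that of Mcm2 under 10. Without OVA replicate 1 or without OVA replicate 3, Mcm5 and Mcm6 alone were called (2 of 7). In the authors' deposited table, 4 of the 7 members have an adjusted p under 0.05 (Mcm2, Mcm5, Mcm6 and Pcna), with a log2 change of 1.71 and an adjusted p of 0.000142 for Mcm5. The same authors' deposited table gives Mcm3 an adjusted p of 0.0867, Mcm7 0.0817 and Mcm4 0.172.

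Genes that act beside the licensing proteins were followed in lists chosen by function. The filter asked for 10 or more normalized counts in 3 or more libraries, which a gene low in BSA T cells passes only through the OVA libraries. Ung and Tipin, named below, entered in that way, with highest BSA values of 5.30 and 6.11. Genes low in both groups were not tested, and the counts of genes that rose carry this limit. Nucleotide supply rose in 6 of 10 tested genes and fell in none, with a median log2 change of 1.23. Shmt1, which feeds folate units into thymidylate synthesis, averaged 52.0 ± 23.9 normalized counts in OVA T cells and 6.25 ± 3.75 in BSA T cells (SD, n = 3 each), a log2 change of 2.89 ± 0.45 (limma, adjusted p = 0.00347). Dctpp1, a pyrophosphatase that cleans the nucleotide pool, averaged 106.8 ± 36.8 in OVA T cells and 28.2 ± 1.61 in BSA T cells, a log2 change of 1.82 ± 0.29. Ctps, CTP synthase, changed by a log2 of 2.01 ± 0.43. Cad, the enzyme that opens pyrimidine synthesis, changed by 1.66 ± 0.38.

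Regulators of entry into S phase rose in 5 of 14 genes tested and fell in 1. Cdk6 and Cdk4, the kinases of cyclin D, averaged 90.3 and 119.7 normalized counts in OVA T cells, against 31.0 and 48.8 in BSA T cells (log2 changes of 1.53 ± 0.27 and 1.27 ± 0.25). Cdc25a, a phosphatase that activates CDK2, rose by a log2 of 1.85 ± 0.37, Ccnd2, a cyclin D, by 0.77 ± 0.16 and E2f4 by 1.13 ± 0.34. The gene that fell was Cdkn1b, the CDK inhibitor p27, by 1.20 on the log2 scale (limma, adjusted p = 0.0158). E2f4 and Cdkn1b were named after their values were seen.

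Partners of PCNA at the fork rose in 3 of 14 genes tested: Ung, which removes uracil from DNA, averaged 26.8 ± 7.69 normalized counts in OVA T cells and 3.43 ± 1.68 in BSA T cells (log2 change 2.68 ± 0.46, limma adjusted p = 0.00527), beside Rnaseh2b (1.37) and Pold2 (1.28). Among polymerases alpha and epsilon and the RPA proteins 2 of 7 rose, the polymerase epsilon subunits Pole3 (1.36) and Pole4 (0.84). Tipin, a factor of fork protection, was the only called gene of 5 tested in helicase activation (27.0 against 5.78 normalized counts, log2 change 2.03 ± 0.36). None of 7 tested genes that recognize origins and load MCM was called, though all 7 had a positive change (median 0.57), and none of 5 that load PCNA was called. Of 20 genes of G2 and mitosis, only Top2a is in the table, at 6.30, 10.1 and 8.03 normalized counts in OVA T cells, against 10.4, 7.94 and 7.13 in BSA T cells, below the filter. The table lists 7830 genes against 24411 to 24421 in the others, by a filter that is not given in the sources used here.

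Other properties of the T cell libraries moved with the groups. Each OVA library was deeper (423594, 614630 and 1316341 reads) than each BSA library (271134, 155088 and 402391), so depth and particle cannot be told apart here. Summed T cell markers were 2335, 2169 and 1932 normalized counts in the OVA group, against 2618, 3072 and 2800 in the BSA group, with 3 of 15 genes lower (Cd3d, Bcl11b and Lef1). Cd3e, an invariant chain of the T cell receptor complex, stood at 63.0, 55.8 and 62.7 in OVA T cells, against 86.0, 90.0 and 70.3 in BSA T cells, so the defining marker of T cells was present in every library. Over both groups Cd4 ran from 86.7 to 151 normalized counts and Cd8a from 26.2 to 136. Transcripts of Cd8a were thus present in every library of these CD4+ T cells.

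B cell and DC markers were present as well. H2-Ab1, of MHC class II, ran from 121 to 897 normalized counts over both groups. Summed B cell markers were 63.0, 680 and 344 normalized counts in the OVA group, against 759, 479 and 607 in the BSA group, with 0 of 10 called. OVA replicate 1 held the least, and its summed conventional DC markers were 628 normalized counts, against 3093 and 1988 in the other OVA libraries and 3616, 2759 and 2902 in the BSA libraries. Xist, which marks female cells, stood at 3.15, 2.02 and 50.0 in the OVA group, against 87.5, 98.0 and 94.8 in the BSA group. The part of these differences in the rise of the licensing genes was not tested.

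DC of the costimulation experiment were examined next, where the comparison of wild-type DC with OT cells and without, all after OVA, asks what the presence of specific T cells changes in DC at 12 h. All 7 members stood lower in both libraries with OT cells than in both without, by 0.82 to 1.67 on the log2 scale, but none was called. The median log2 change of the members was -1.30, against -0.03 over all genes. Of all genes tested 1.33% were called lower and 2.60% in either direction, and 28.5% were lower with no overlap between the libraries. At an unadjusted p under 0.05 the count was 7 of 7 members, against 8.06% of all genes lower by that measure.

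Mcm7 stood at 26.7 and 20.0 CPM with OT cells, against 61.0 and 86.3 CPM without. Its lowest value without OT cells was above each of the 6 libraries with OT cells in the experiment, and its log2 change was -1.56 ± 0.37 (edgeR, adjusted p = 0.0517, n = 2 each). Mcm5 stood at 45.7 and 42.6 CPM with OT cells, against 85.7 and 109.6 CPM without. Both libraries with OT cells were close to each other and well apart from the others (-1.07 ± 0.27, edgeR, adjusted p = 0.0672). Mcm6 stood at 41.1 and 28.8 CPM with OT cells, against 64.7 and 119.8 CPM without. The libraries without OT cells were far apart from each other, and the log2 change was -1.30 ± 0.35 (edgeR, adjusted p = 0.0762).

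The other members were less separated relative to their spread. Mcm2 stood at 10.7 and 15.0 CPM with OT cells, against 32.1 and 52.9 CPM without (-1.67 ± 0.51, edgeR, adjusted p = 0.110). Mcm4 stood at 19.8 and 15.0 CPM with OT cells, against 29.0 and 77.8 CPM without (-1.50 ± 0.51, edgeR, adjusted p = 0.157). Mcm3 stood at 23.6 and 31.3 CPM with OT cells, against 46.2 and 68.4 CPM without (-1.0 ± 0.33, edgeR, adjusted p = 0.137). For these genes, replicate 2 was the higher of the libraries without OT cells, by the widest margin in Mcm4. Pcna stood at 84.5 and 55.1 CPM with OT cells, against 117 and 145 CPM without (-0.82 ± 0.27, edgeR, adjusted p = 0.137), and had the smallest change of the 7.

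How many members were called depended on the fit. With no filter on low counts 5 members passed (Mcm2, Mcm4, Mcm5, Mcm6 and Mcm7), and none of the 7 passed with DESeq2 or with any 1 library left out. The authors' deposited table gives Mcm6 a log2 change of -1.27 with an adjusted p of 0.0121 and Mcm7 a change of -1.49 with an adjusted p of 0.00679; the other 5 have adjusted p from 0.0558 to 0.326 in the authors' deposited table.

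The other groups with OT cells stood near the wild-type OVA group. Knockout DC held 237 to 251 CPM summed over the 7 members, wild-type OVA DC with OT cells 208 to 252 CPM and wild-type BSA DC with OT cells 259 to 327 CPM, against 435 and 659 CPM without OT cells. The group without OT cells had the highest mean for all 7 genes. Ordered by their means, neighbouring groups were apart by more than the larger of their SDs in 7 of 21 cases in this experiment. The count was 0 of 14 in the 5-replicate experiment and 3 of 28 in the time course. An SD rests on 5 libraries in the 5-replicate experiment but on 2 in the others, so these counts do not compare separation between experiments.

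**Figure D2:**
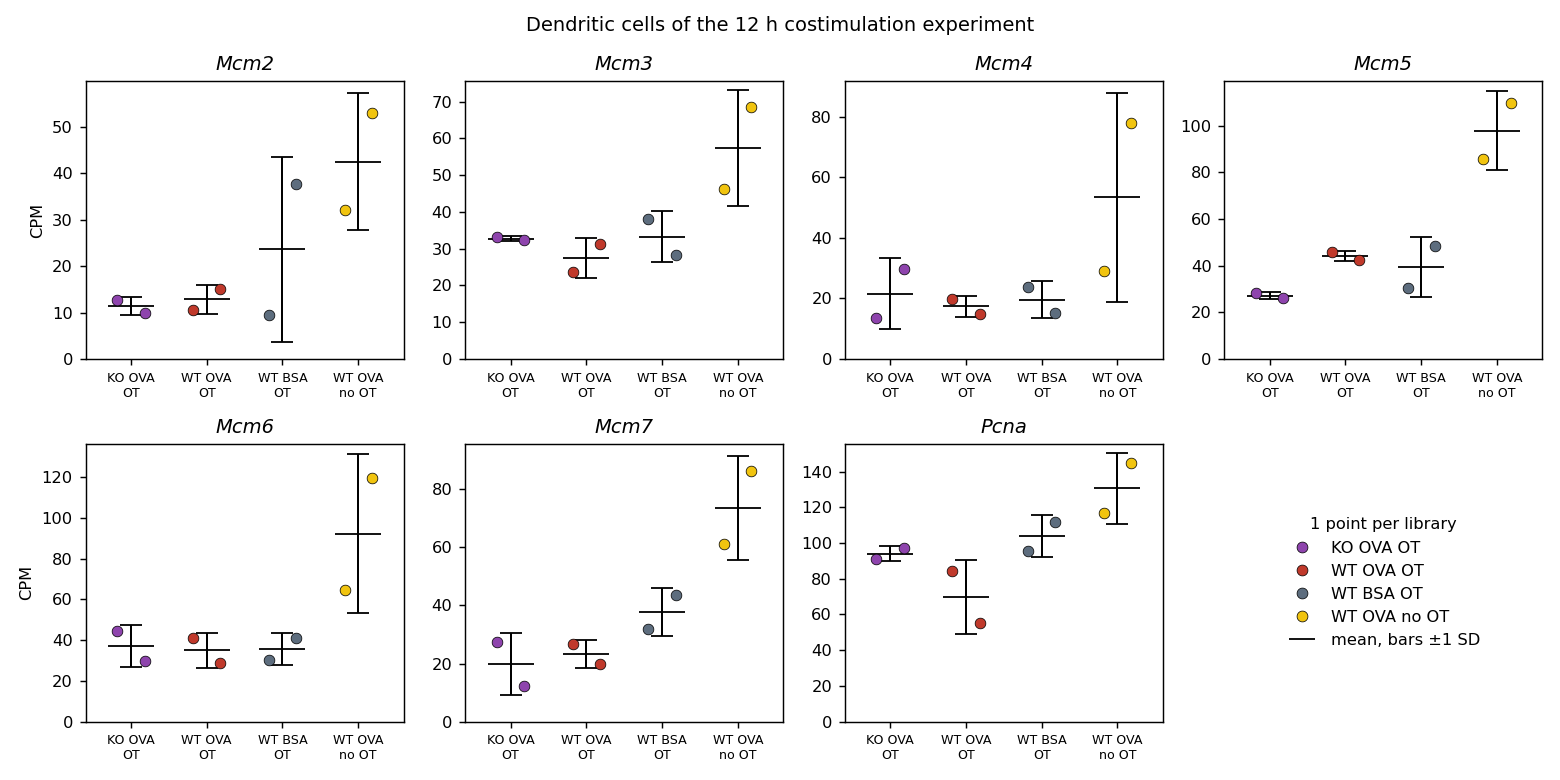
Levels of the 7 genes in DC of the costimulation experiment, in CPM per library, for knockout DC after OVA and, in the wild type, OVA and BSA, all with OT cells, beside wild-type DC after OVA without OT cells (n = 2 each); bars show the group mean ± 1 SD. For each gene the mean without OT cells is the highest of the 4; Mcm7 stands at 61.0 and 86.3 CPM there, against 12.4 to 43.6 CPM in the 6 libraries with OT cells.

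Genes around the licensing set gave few calls in the same comparison. Fen1, the flap nuclease that works on PCNA, averaged 18.8 ± 1.78 CPM with OT cells and 54.5 ± 10.9 CPM without (SD, n = 2 each), a log2 change of -1.47 ± 0.32 (edgeR, adjusted p = 0.0362), the 1 call among 17 PCNA partners. All 12 tested genes of nucleotide supply had a negative change, with a median of -0.62. Ccnd2 averaged 231 ± 13.5 CPM with OT cells and 803 ± 142 CPM without (-1.73 ± 0.33, edgeR, adjusted p = 0.0236). None of 9 genes of origin recognition and MCM loading, 9 of helicase activation, 8 of polymerases and RPA or 6 of PCNA loading was called. Of 20 listed genes of G2 and mitosis, 12 passed the filter and 0 were called. Summed over the 20, their level was higher with OT cells, at 282 and 472 CPM, against 197 and 259 CPM without. It was 186 to 249 CPM in knockout DC and 139 to 151 CPM in wild-type BSA DC, both with OT cells.

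Markers of other cell types differed between these groups. All 8 NK cell markers were called lower with OT cells, and their sums ran from 97.6 to 275 CPM in the 6 libraries with OT cells, against 2397 and 5933 CPM without. T cell markers were lower in 6 of 11 tested genes (among them Lck, Lat and Cd3d), with sums of 129 and 150 CPM with OT cells, against 274 and 537 CPM without. Cd3e was at 0 in both libraries with OVA and OT cells, against 11.1 and 11.7 CPM without. Summed B cell markers were 22.5 to 25.1 CPM with OT cells, against 150 to 222 CPM without. Among them Cd79b was called lower with OT cells (-1.97 ± 0.38, edgeR, adjusted p = 0.0253).

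Markers of DC subsets moved in different directions. Summed plasmacytoid DC markers were 1943 and 1784 CPM with OT cells, against 3582 and 6043 CPM without, with 0 of 8 genes called. Summed conventional DC markers were 14386 and 15495 CPM with OT cells, against 5617 and 10166 CPM without, and Batf3 was called higher. Summed markers of migratory DC were 9855 and 8266 CPM with OT cells, against 1870 and 3513 CPM without, and Fscn1, Cacnb3 and Il4i1 were called higher. Zbtb46, a factor of conventional DC, stood at 24.4 and 18.8 CPM with OT cells, against 3.08 and 15.6 CPM without, and Flt3, a growth factor receptor of DC, at 234 and 260.4 CPM with OT cells, against 41.3 and 116 CPM without. Itgax, which encodes CD11c, stood at 69.3 and 55.1 CPM with OT cells, against 103 and 95.7 CPM without. H2-Ab1, of MHC class II, stood at 2714 and 3028 CPM with OT cells, against 1432 and 2368 CPM without, Cd8a at 214 and 178 CPM, against 82.0 and 178 CPM without, and Cd4 at 17.5 and 2.50 CPM, against 95.6 and 243 CPM without. Summed monocyte and macrophage markers were 4729 and 4677 CPM with OT cells, against 11343 and 5422 CPM without, with 0 of 11 genes called. Summed neutrophil markers were 5597 and 5616 CPM with OT cells, between the 3604 and 19215 CPM without. Of these markers Ly6g was called lower with OT cells (-2.76 ± 0.53, edgeR, adjusted p = 0.024). The part of these cell types in the lower licensing genes was not tested.

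**Figure D3:**
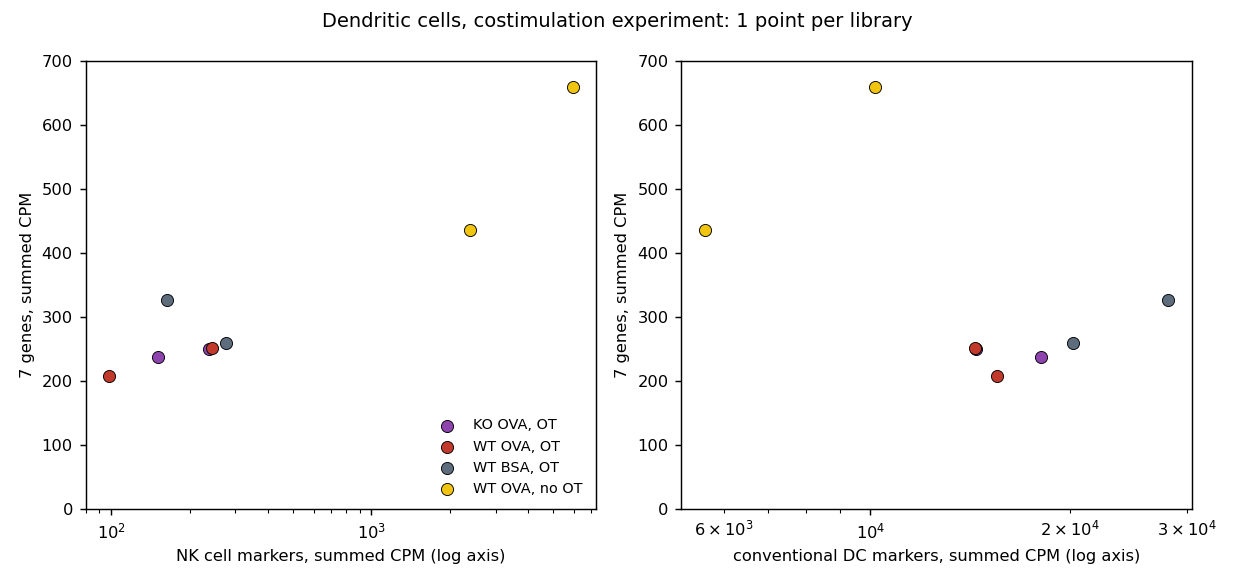
Summed level of the 7 licensing genes (vertical axes, CPM) against the summed level of NK cell markers (left panel) and of conventional DC markers (right panel; horizontal axes in CPM, log scale) in the 8 libraries of the costimulation experiment, coloured by group. The libraries without OT cells stand apart, at 435 and 659 CPM for the licensing genes, 2397 and 5933 CPM for NK cell markers and 5617 and 10166 CPM for conventional DC markers.

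Knockout DC were compared with wild-type DC, both after OVA with OT cells. By the labelled genotype, the knockout lacks the costimulatory ligands CD80 and CD86. Cd86 stood at 37.4 and 48.5 CPM in knockout DC, against 81.5 and 82.6 CPM in wild-type DC, and Cd80 at 4.23 and 12.4 CPM in knockout DC, against 11.4 and 10.0 CPM in wild-type DC. Which exons are deleted and where the counted reads lie is not given in the sources used here, so these reads do not check the genotype. None of the 7 members was called, nor was any gene of the table (0% of genes; 1068 genes had an unadjusted p under 0.05 and other settings called between 0 and 679). Mcm5 stood at 28.2 and 26.1 CPM in knockout DC, against 45.7 and 42.6 CPM in wild-type DC, with no overlap (-0.76 ± 0.30, edgeR, adjusted p = 0.393); 22.7% of all genes were lower with no overlap. Pcna stood at 91.0 and 97.0 CPM in knockout DC, against 84.5 and 55.1 CPM in wild-type DC (0.35 ± 0.27, edgeR, adjusted p = 0.644). The other 5 members differed by -0.24 to 0.21, each with overlapping libraries or a difference smaller than its SE. Makeup differed too. Summed plasmacytoid DC markers were 3504 to 3647 CPM in knockout DC, against 1784 to 1943 CPM in wild-type DC. Summed monocyte and macrophage markers were 7382 to 9110 CPM, against 4677 to 4729 CPM. Summed migratory DC markers were 3874 to 4669 CPM, against 8266 to 9855 CPM. Zbtb46 ran from 6.22 to 9.17 CPM, against 18.8 to 24.4 CPM. Summed erythroid markers were 26.1 to 74.6 CPM in knockout DC, against 3852 to 8697 CPM in wild-type DC. Summed B cell markers were 77.6 to 83.3 CPM, against 22.5 to 25.1 CPM, and summed T cell markers 68.4 to 93.3 CPM, against 129 to 150 CPM. Flt3 ran from 115 to 145 CPM, against 234 to 260 CPM, and H2-Ab1 from 4793 to 5287 CPM, against 2714 to 3028 CPM. Conventional DC and neutrophil sums overlapped. The part of this makeup in the member values was not tested.

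OVA was compared with BSA in wild-type DC with OT cells, which varies whether the OT cells can recognize the antigen. None of the 7 members was called, against 0.0107% of genes (1 gene; 850 had an unadjusted p under 0.05). Changes ran from -0.86 for Mcm2 to 0.24 for Mcm5. Mcm7 stood at 26.7 and 20.0 CPM after OVA, against 31.8 and 43.6 CPM after BSA, and Pcna at 84.5 and 55.1 CPM after OVA, against 95.5 and 112 CPM after BSA. Neither overlapped, and 19.8% of all genes were lower with no overlap. For Mcm2 the BSA libraries were far apart from each other, at 9.55 and 37.7 CPM, with the OVA libraries at 10.7 and 15.0 CPM between them. The BSA libraries also differed in makeup. Their summed markers ran from 27.1 to 246 CPM for B cells, from 53.1 to 7673 CPM for erythroid cells and from 1898 to 7649 CPM for plasmacytoid DC. Whether this makeup had a part in the member values was not tested.

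In the 5-replicate experiment DC after OVA or BSA particles were set beside DC of non-immunized mice, which asks what immunization with and without the specific antigen changes at 20 h. The licensing genes stood at like levels in all 3 groups, and none was called in any comparison. Of all genes 15.6% were called between OVA and non-immunized, 5.45% between BSA and non-immunized, and 0% between OVA and BSA, where 561 genes had an unadjusted p under 0.05 and other settings called between 0 and 4. The summed level of the members ran from 215 to 285 CPM over the 15 libraries.

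Pcna had a lowest, median and highest level of 33.8, 57.5 and 71.5 CPM after OVA, 49.0, 55.0 and 66.9 CPM after BSA, and 48.4, 55.8 and 63.9 CPM in non-immunized mice. The groups overlapped over nearly their whole range. Mcm3 had 34.7, 39.6 and 49.7 CPM after OVA, 28.7, 43.0 and 51.2 CPM after BSA, and 30.0, 38.5 and 40.4 CPM in non-immunized mice. It had the largest change of the set between OVA and non-immunized, 0.34 ± 0.16 (edgeR, adjusted p = 0.163, n = 5 each). The 7 changes between OVA and non-immunized ran from 0.10 to 0.34, and their 95% intervals together from -0.43 to 0.76. The CPM means ran the other way for Mcm2 (13.9 after OVA and 15.5 in non-immunized mice) and Pcna (55.0 after OVA and 55.9 in non-immunized mice).

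Mcm4 had a lowest, median and highest level of 24.1, 24.4 and 28.3 CPM after OVA, 14.2, 20.4 and 21.5 CPM after BSA, and 16.5, 23.0 and 40.8 CPM in non-immunized mice. All 5 OVA libraries lay above all 5 BSA libraries, a separation found in 0.360% of genes, while the non-immunized libraries spanned both. The difference between OVA and BSA, 0.51 ± 0.23, did not pass over all genes (edgeR, adjusted p = 0.784). The other 6 members differed between OVA and BSA by -0.11 to 0.31, with overlapping libraries. Mcm2 reached 8.72, 12.8 and 22.0 CPM after OVA, 7.87, 11.6 and 14.4 CPM after BSA, and 9.13, 15.3 and 21.8 CPM in non-immunized mice. Mcm5, Mcm6 and Mcm7 had medians of 26.8, 42.4 and 40.9 CPM after OVA, 33.2, 38.2 and 35.7 CPM after BSA, and 27.5, 39.1 and 37.8 CPM in non-immunized mice.

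Some genes that act with the licensing set did change at 20 h. Cdt1, which loads MCM onto origins, averaged 21.0 ± 5.36 CPM after OVA and 13.5 ± 2.68 CPM in non-immunized mice, a log2 change of 0.83 ± 0.23 (edgeR, adjusted p = 0.0156, n = 5 each). Orc2, a subunit of the origin recognition complex, averaged 14.5 ± 6.62 CPM after OVA and 28.7 ± 3.95 CPM in non-immunized mice (-0.93 ± 0.29, edgeR, adjusted p = 0.0337). These were the calls among 8 tested genes of origin recognition and loading. Rfc3, of the complex that loads PCNA, rose by 0.62 ± 0.20, and Pold2, of polymerase delta, by 0.53 ± 0.18. Cdkn1a, the CDK inhibitor p21, which also binds PCNA, averaged 1199 ± 186 CPM after OVA and 803 ± 173 CPM in non-immunized mice (0.73 ± 0.15, edgeR, adjusted p = 0.00189).

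Among 17 tested regulators of S phase entry, 3 rose and 2 fell after OVA. The cyclin Ccnd2 rose by 1.97 ± 0.36, Ccnd3 by 0.90 ± 0.17 and Rbl1, a relative of the retinoblastoma protein, by 0.75 ± 0.18, while E2f5 fell by 0.99 and E2f2, named after its value was seen, by 1.26 on the log2 scale. Mki67, a marker of cycling cells, averaged 10.6 CPM after OVA and 24.0 CPM in non-immunized mice (-1.07 ± 0.28, edgeR, adjusted p = 0.0126), the 1 call among the 11 of 20 genes of G2 and mitosis that passed the filter. None of 13 genes of nucleotide supply was called. After BSA the called genes were Gins4, a part of the active helicase (0.58 ± 0.17), Cdkn1a (0.52 ± 0.15), Ccnd2 (1.29 ± 0.36), Ccnd3 (0.84 ± 0.17) and E2f5 (-0.79 ± 0.21). Both comparisons share the non-immunized libraries.

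Every library held Zbtb46 (22.5 to 42.4 CPM), and Cd3e ran from 0 to 3.54 CPM. Other markers moved with the groups. Summed monocyte and macrophage markers ran from 120 to 278 CPM after OVA and from 178 to 316 CPM after BSA, against 660 to 2070 CPM in non-immunized mice, with 7 of 8 tested genes called lower after either. Itgax ran from 56.0 to 97.4 CPM after OVA and from 91.4 to 138 CPM after BSA, against 199 to 272 CPM in non-immunized mice. After OVA both tested NK cell genes, 2 of 7 of plasmacytoid DC and 3 of 8 of migratory DC were called higher. Xist had a median of 155 CPM after OVA and 253 CPM after BSA, against 10.9 CPM in non-immunized mice, over wide and overlapping ranges. The part of this makeup in the values above was not tested.

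**Figure D4:**
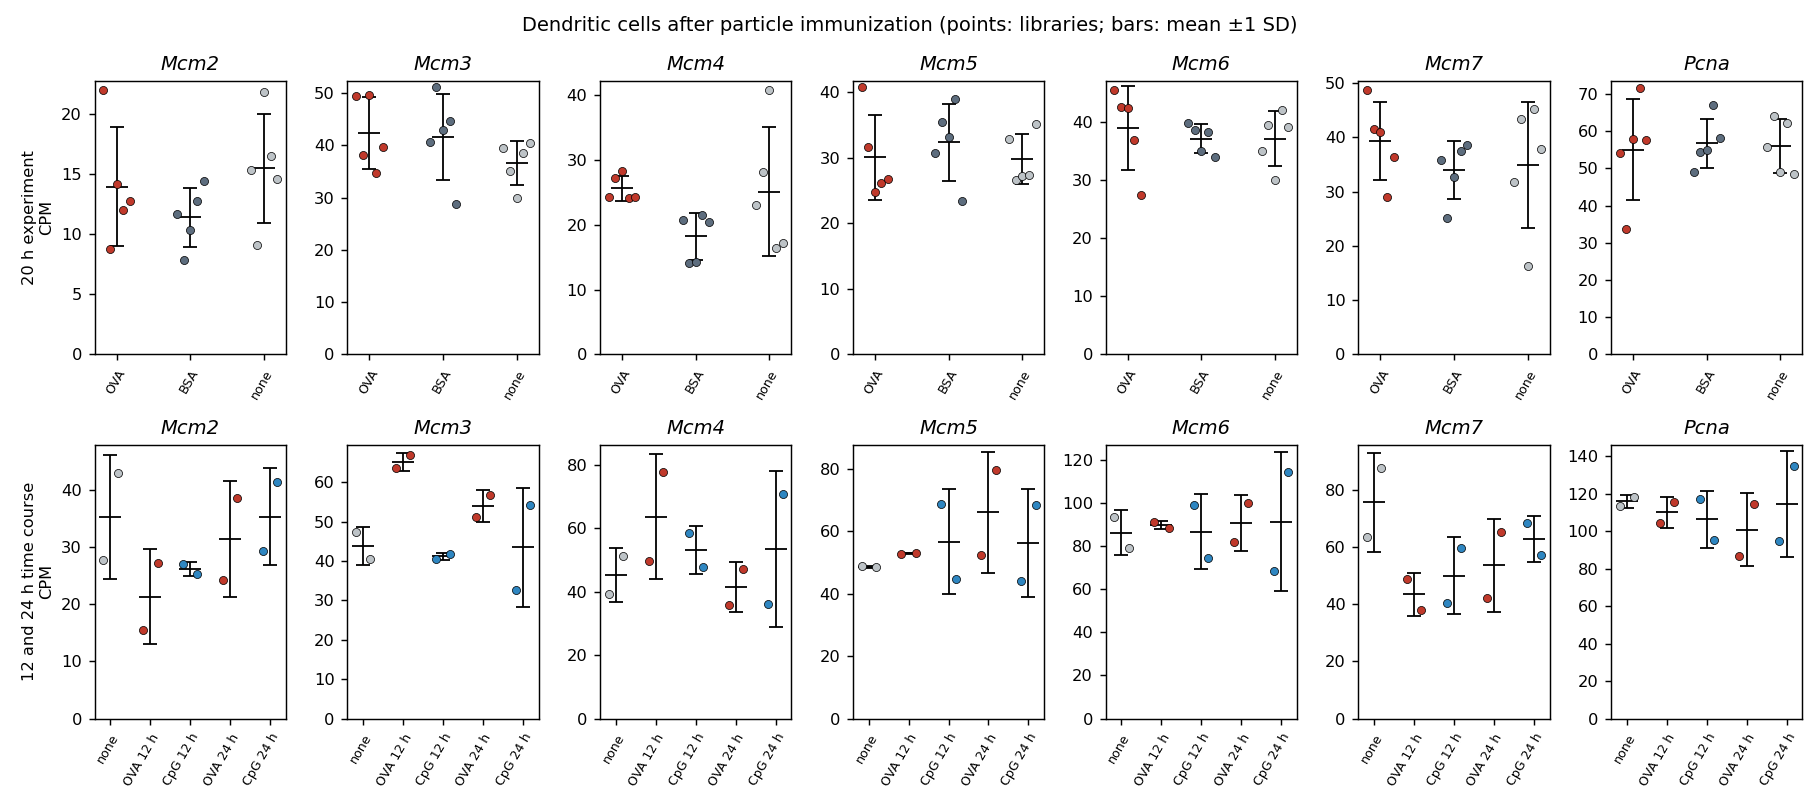
Levels of the 7 genes in DC libraries of the 5-replicate experiment (OVA, BSA and non-immunized, n = 5 each) and of the time course (non-immunized, OVA and CpG at 12 h, OVA and CpG at 24 h, n = 2 each), in CPM per library, with bars for the group mean ± 1 SD. The groups overlap for most genes; Mcm4 after OVA (24.1 to 28.3 CPM) lies above Mcm4 after BSA (14.2 to 21.5 CPM), and Mcm3 at 12 h after OVA (63.5 and 66.8 CPM) lies above the other groups of the time course.

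In the time course the question was how adjuvant alone and adjuvant with OVA change DC by 12 h and 24 h. No member was called in any of the 4 comparisons with non-immunized DC, where 13.6% of genes were called after OVA at 12 h, 16.3% after CpG at 12 h, 14.1% after OVA at 24 h and 11.0% after CpG at 24 h. None was called between OVA and CpG at 12 h (2.46% of genes) or at 24 h (0% of genes; 959 had an unadjusted p under 0.05 and other settings called between 0 and 453), between 24 h and 12 h after OVA (8.90%) or CpG (7.63%), or for the difference of the antigen's change between the times (3.38%). Comparisons with the non-immunized group share its 2 libraries.

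Mcm3 came nearest to a call. It stood at 47.3 and 40.4 CPM in non-immunized DC, at 63.5 and 66.8 CPM after OVA and 40.6 and 41.8 CPM after CpG at 12 h, and at 51.2 and 56.8 CPM after OVA and 32.7 and 54.2 CPM after CpG at 24 h. Both OVA libraries at 12 h exceeded every other library of the experiment; 19.4% of genes were higher than in non-immunized DC with no overlap. The change after OVA at 12 h, relative to non-immunized DC, was 0.79 ± 0.25, or 1.73-fold (edgeR, adjusted p = 0.0501, n = 2 each; 0.0201 to 0.304 over the alternatives), and that between OVA and CpG at 12 h was 0.67 ± 0.27 (edgeR, adjusted p = 0.283).

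Some other members also differed from non-immunized DC, with no overlap in part of the comparisons. Mcm7 stood at 63.6 and 88.0 CPM in non-immunized DC, at 48.8 and 38.2 CPM after OVA and 40.6 and 59.7 CPM after CpG at 12 h, and at 42.2 and 65.2 CPM after OVA and 68.6 and 57.2 CPM after CpG at 24 h. Both groups at 12 h lay under the non-immunized libraries, as did 46.2% of all genes after OVA and 44.9% after CpG, and the change after OVA was -0.54 ± 0.28 (edgeR, adjusted p = 0.218). Mcm4 stood at 49.7 and 77.7 CPM after OVA at 12 h, against 39.1 and 51.2 CPM in non-immunized DC, with overlap (0.70 ± 0.31, edgeR, adjusted p = 0.158). Mcm5 stood at 52.5 and 79.7 CPM after OVA at 24 h, against 48.9 and 48.5 CPM in non-immunized DC (0.65 ± 0.28, edgeR, adjusted p = 0.139). It did not overlap, and 20% of all genes were higher with no overlap in that comparison. In both genes replicate 1 of the immunized pair was close to the non-immunized level. At 12 h after OVA, Mcm5 stood at 52.9 and 53.2 CPM, just above both non-immunized libraries.

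Mcm2 stood at 15.5 and 27.3 CPM after OVA at 12 h, against 27.7 and 43.1 CPM in non-immunized DC (-0.55 ± 0.37, edgeR, adjusted p = 0.362), with no overlap, and its groups at 24 h held 24.3 and 38.7 CPM after OVA and 29.4 and 41.4 CPM after CpG. Pcna stood between 87.0 and 135 CPM in the immunized groups, against 113 and 119 CPM in non-immunized DC. Mcm6 stood between 68.6 and 114 CPM in the immunized groups, against 93.8 and 79.0 CPM in non-immunized DC. For both genes the non-immunized values lay inside the range of the immunized ones.

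Other genes of replication and division changed in the same libraries. Of 20 listed genes of G2 and mitosis 9 passed the filter, which genes near 0 in non-immunized DC pass only through libraries where they are high. Of these 9, 7 rose after OVA at 12 h, 6 after CpG at 12 h, 5 after OVA at 24 h and 5 after CpG at 24 h, and the other 11 were not tested. Ccnb2, a cyclin of mitosis, averaged 47.0 ± 4.85 CPM after OVA at 12 h and 1.71 ± 0.12 CPM in non-immunized DC (4.90 ± 0.50, edgeR, adjusted p = 4.29e-06). Rfc3 averaged 82.8 ± 13.0 CPM after OVA at 12 h and 17.9 ± 1.20 CPM in non-immunized DC (2.44 ± 0.30), and rose in all 4 comparisons with non-immunized DC.

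Cdkn1a rose in those 4 comparisons as well. It averaged 49.5 ± 2.68 CPM in non-immunized DC, 293 ± 25.2 CPM after OVA and 351 ± 5.74 CPM after CpG at 12 h, and 267 ± 44.2 CPM after OVA and 128 ± 33.5 CPM after CpG at 24 h. Rfc1, the large subunit of the PCNA loader, fell at 12 h after OVA (-0.89 ± 0.25) and CpG (-0.80 ± 0.26). Of 8 genes of origin recognition and MCM loading, none was called in these 4 comparisons.

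The makeup of the time course libraries moved with immunization. Cd3e ran from 83.6 to 267 CPM and Zbtb46 from 0.815 to 11.3 CPM, so T cell transcripts were present in every library labelled as DC. Summed neutrophil markers were 123 to 178 CPM in non-immunized libraries, 2075 to 2096 CPM after OVA and 12638 to 16443 CPM after CpG at 12 h, and 407 to 2444 CPM after OVA and 94.8 to 807 CPM after CpG at 24 h. Of 7 neutrophil genes, 6 and 7 were called higher after OVA and CpG at 12 h, and 5 and 1 after OVA and CpG at 24 h. Summed T cell markers were 1850 to 4340 CPM in the immunized libraries, against 6013 to 6345 CPM in the non-immunized ones. Summed B cell markers were 518 to 523 CPM in non-immunized libraries, 969 to 1248 CPM after OVA and 1079 to 1409 CPM after CpG at 12 h, and 514 to 1034 CPM after OVA and 596 to 2328 CPM after CpG at 24 h. Summed migratory DC markers were 490 to 793 CPM in non-immunized libraries, 977 to 1217 CPM after OVA and 3788 to 4187 CPM after CpG at 12 h, and 4826 to 6115 CPM after OVA and 2186 to 3271 CPM after CpG at 24 h. The part of these cells in the member and mitosis values was not tested.

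**Figure D5:**
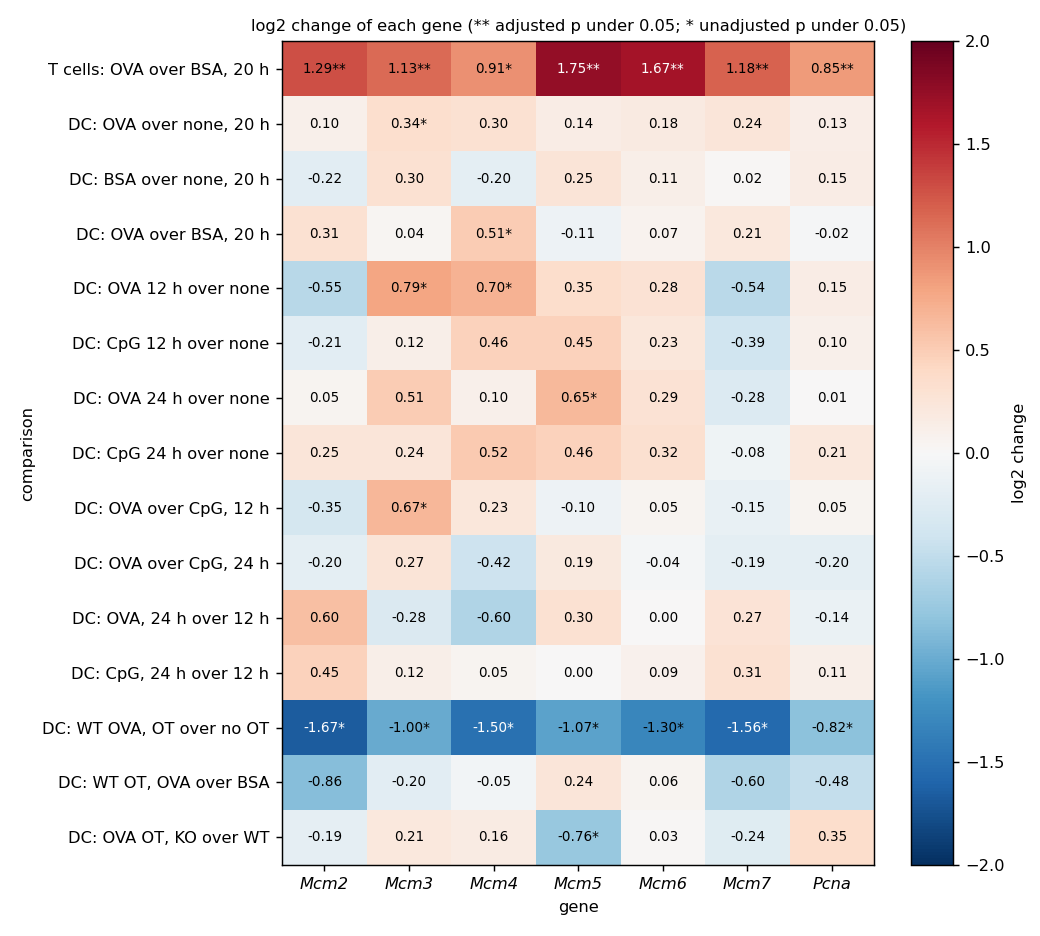
Log2 change of each of the 7 genes in 15 comparisons, in colour from lower to higher, with ** for an adjusted p under 0.05 and * for an unadjusted p under 0.05. OVA T cells against BSA T cells is the only comparison with calls (6 genes), and DC with OT cells against DC without is the only other one in which every gene passes at the unadjusted level.

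The members were then compared among themselves and with all genes across the 33 DC libraries, with each experiment centred on its own mean. Over pairs of members Pearson's r had a median of 0.452 and ran from 0.189 to 0.793, the highest for Mcm5 and Mcm6. Without the costimulation experiment the median was 0.144, from -0.268 to 0.626, so much of the shared pattern lay in those 8 libraries. These correlations describe libraries that differ in depth and cell makeup.

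The 10 of 8067 genes whose pattern was most like the mean of the members were Pim2 (r = 0.833), Gimap4 (0.790), Rpa2 (0.757), Gimap6 (0.752), Cyfip2 (0.747), Ncl (0.742), Nkg7 (0.740), Satb1 (0.731), Ssrp1 (0.722) and Cct6a (0.705). Rpa2, of the complex that coats single-stranded DNA, and Ssrp1, of the histone chaperone FACT, act at the fork, whereas Nkg7 is a granule protein of cytotoxic lymphocytes and Gimap4 and Gimap6 are GTPases of lymphocytes. Within the costimulation experiment their r was 0.883 to 0.971, against -0.148 to 0.650 in the 5-replicate experiment and -0.389 to 0.626 in the time course. Pim2, a kinase of growth and survival, stood at 18.3 and 18.7 CPM in knockout DC, 28.2 and 10.0 CPM in wild-type OVA DC with OT cells, 27.1 and 47.2 CPM in wild-type BSA DC with OT cells, and 83.9 and 240.3 CPM without OT cells. It was picked for this likeness, so these levels are a description.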

How the data were processed

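RNA of sorted DC (33 libraries) and OT-II T cells (6 libraries) was sequenced. Per the submitters' processing notes, bcl2fastq, HISAT 0.1.6 and HOMER were used with the mm9 build. For DC the authors deposited raw counts per gene. For T cells the deposited signal is a normalized count, that is, a count divided by a size factor of the library. Whole reads were recovered from it, and 100% of 46980 values were whole to within 0.001 reads. The authors deposited a log2 fold change and an adjusted p-value for each of their comparisons beside these values. In the table of the 5-replicate experiment 4 columns, which stand for 2 libraries and match no label, were not used. Their headers hold the word NOgraft, which the headers of the libraries used do not.

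DC counts were tested with edgeR 4.0.16 (quasi-likelihood, TMM, filterByExpr by group, all libraries of an experiment in the fit), on 9159, 9428 and 9355 genes in the 5-replicate experiment, time course and costimulation experiment. T cell values were tested with limma 3.58.1 with a trend on values taken as log2 after adding 1. A gene entered where 3 or more libraries held 10 or more normalized counts, which left 6452; fold changes on that scale understate changes of low genes. Adjustment was by Benjamini-Hochberg across every gene tested, at a threshold of 0.05. Reads per gene limit precision, as given in the report.

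Alternatives were DESeq2 1.42.0, its size factors, a fit blocked by replicate number, no filter, a filter on a mean of 1 CPM, a fit to the compared groups alone, leaving out each library, adding 0.5 or 5 in place of 1, and an edgeR fit to the recovered reads, which called 1154 T cell genes against 1025. The mean of the 3 groups with OT cells against the group without was added after seeing the data. R 4.3.3, Python 3.11.15, pandas 2.3.3 and matplotlib 3.10.9 were used, and the tests were tried on simulated data with known changes. Promoter windows are RefSeq's on GRCm38.p6 and were matched by symbol. Exon overlaps come from the GENCODE annotation of that assembly, and pseudogenes from the RefSeq genes.

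All 7 members are named in every comparison. From each function list the counts and up to 4 called genes of smallest adjusted p are named, with Cd3e, Itgax, Flt3, Zbtb46, H2-Ab1, Cd4 and Cd8a followed as defining markers and the 10 genes most like the members by correlation. The members and lists were chosen with earlier results of these data known. Some items that these rules would name are not reported here.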

Additional observations from a re-analysis of the deposited data

How the results depend on the processing

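Over 16 comparisons the 7 genes gave 112 changes. Of the 21 with an unadjusted p under 0.05, 0 changed sign under any alternative; of the other 91, 52 did, and none of those was called under any alternative. In T cells the number of members called was 2 to 6 with 1 library left out, and the 2 were Mcm5 and Mcm6 without OVA replicate 1 and without OVA replicate 3. In OVA DC at 12 h against non-immunized DC, 1 member (Mcm3) was called with DESeq2 size factors, with no filter and with only the groups compared. In DC with OT cells against DC without, 5 members were called with no filter, 1 with a mean of at least 1 CPM (Mcm7), 2 with only the groups compared (Mcm2 and Mcm7) and 3 with the mean of all 3 groups with OT cells, an alternative chosen after seeing the data (Mcm5, Mcm6 and Mcm7). The cause of these moves was not tested. Over all genes, that comparison called 243, against 235 to 917 under the other settings and 8 to 321 with 1 library left out. Likewise T cells called 1025, against 788 to 1154 and 369 to 1467, and OVA DC at 12 h called 1282, against 794 to 1911 and 529 to 831. A member rested on as few as 5 reads in a T cell library and 6 in a DC library, which limits what could be detected.

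Same-numbered libraries did not deviate together in every pair of any comparison with 3 or more pairs (r from -0.125 to 0.0531 in T cells and from -0.143 to 0.167 in the 5-replicate experiment). In comparisons of 2 libraries per group r ran from -0.0591 to 0.148, and the labels name no shared batch, so the numbers were not taken as a pairing. With the replicate block 5 members were called in T cells, and 3 in DC with OT cells against DC without (Mcm2, Mcm5 and Mcm7); the block called no member in the other comparisons.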
